A study of Rattus norvegicus with 18 samples.

Results

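The 6 arrays described here compared RNA from large polysomes with total RNA of the rat lung on fetal day 19 (FD19). They were the 3 arrays labelled as FD19 polysomal RNA and the 3 labelled as FD19 total RNA, chosen by their labels from 18 arrays in all, and arrays with the same replicate number came from the same lysate. Polysomal RNA was recovered from the part of a sucrose gradient where an mRNA carried more than 7 ribosomes, and total RNA came from an aliquot of the same lysate before the gradient. Each of the 3 lysates was made from lungs of a separate litter of Wistar fetuses, which were delivered by Caesarean section, and the lungs, at the canalicular stage, had been snap-frozen. The other 12 arrays held the same 2 kinds of RNA from fetal day 22 (FD22) and from newborns 5 h after birth (P1), both at the saccular stage, with 3 lysates each. They served to show where the FD19 ratios differed from later ones. They also entered the model behind the FD19 standard errors and adjusted p-values, which used a spread estimated over all 18 arrays. The filter on signal and the probe set that stands for a gene were likewise set on all 18 arrays. The labels name no allele and no agent for any group. The lung was extracted whole, the number of fetuses per lysate is not given in the sources used here, and lighter parts of the gradient were not analysed here.

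A ribosome covers a short stretch of an mRNA, so the number of ribosomes on a message rises with the rate of initiation and with the length of the coding region. A message that is initiated often and has room for many ribosomes sediments with the large polysomes, while a repressed message, a message with a very short coding region or a noncoding RNA stays in lighter parts of the gradient. Messages for ribosomal proteins and elongation factors start with a run of pyrimidines, the 5′ terminal oligopyrimidine (TOP) motif, through which growth signals and the TOR kinase are known to set their loading. In the late fetal lung, epithelial cells are known to differentiate into surfactant-producing type II cells and flat type I cells while a thick, matrix-rich mesenchyme thins.

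Signals are in the arbitrary intensity units of the array after scaling each array to the same trimmed mean of about 150, so a polysomal over total ratio is relative to the other transcripts of that fraction and is no share of a message on ribosomes. The ratio is given as log2(polysomal + 5.6) minus log2(total + 5.6) with the standard error (SE) of limma, from a model with the lysate as a block, n = 3 lysates, and a gene is called where the p-value adjusted over all probe sets tested was under 0.05. Of 31042 probe sets that were no array controls, 21655 were bright enough to be tested on the 18 arrays, and they represented 11583 named genes. The number of arrays limits the precision. Control transcripts spiked into every hybridisation were dimmer in polysomal RNA, with geometric mean signals of 424, 581 and 585, against 671, 627 and 851 in total RNA. Scaling to them raised the median log2 ratio of the probe sets by 0.41, so a negative ratio smaller than about that size changes its sign on that scale. The 3 polysomal arrays also had lower highest signals, between 4822 and 5454, than the total RNA arrays, between 7311 and 8236. Quantile normalization removes that difference and was tried as an alternative. The 3′ over 5′ signal ratio of the actin control, which rises when RNA is broken, was 1.49, 1.13 and 1.22 in polysomal RNA, against 1.397, 1.35 and 1.48 in total RNA, so the groups overlapped.

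One of the 6 arrays stood apart, the polysomal array of lysate 3. Among the 50 probe sets that rose most in total RNA at FD22 over FD19, the median signal was 46.2, 43.5 and 114.7 on the polysomal arrays of lysates 1, 2 and 3, against 38.4, 42.1 and 42.7 on the total RNA arrays. The within-lysate ratio of these probe sets thus had a median of 0.078, 0.25 and 1.29 in lysates 1, 2 and 3. Of the 50 probe sets, 22 were called higher in polysomal RNA with all lysates and 11 without lysate 3. With all lysates, 14.3% of all probe sets tested were called higher. The 50 were picked in part by low total RNA signal at FD19, which raises their ratios in advance, so their count is no test. The total RNA array of lysate 3 did not share the high signals of its polysomal array, and what set the polysomal array apart was not tested. Ratios of the surfactant, type I and airway genes that follow are therefore given with and without lysate 3. The polysomal array of lysate 1 held more of several transcripts that were low in the other polysomal arrays, among them H19, which had signals of 1911, 708 and 792 in polysomal RNA, against 4630, 3599 and 3890 in total RNA. Across all probe sets tested, the within-lysate ratios correlated at r = 0.60 between lysates 1 and 2, at 0.63 between 1 and 3 and at 0.69 between 2 and 3, as a description over probe sets that share their arrays.

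Markers of the labelled tissue were present. Sftpc, a surfactant protein of type II cells, had signals of 3909, 4215 and 4779 in polysomal RNA, against 5288, 5673 and 6008 in total RNA. All 19 type II markers, 12 type I markers and 12 airway markers on the array were measured, that is, bright enough on at least 3 of the 18 arrays. On all 6 FD19 arrays, 18 type II, 10 type I and 10 airway markers lay above that filter of 40.9. Markers of heart and skeletal muscle were also seen, 14 of 16 above the same filter on all 6 arrays. Their summed signals were 2758 to 7202 on the polysomal arrays and 2262 to 5844 on the total RNA arrays. Lysate 1 held the highest sums of both fractions for muscle and for cartilage, as in Nppa, the atrial natriuretic peptide, which had signals of 1128, 372 and 784 in polysomal RNA, against 456, 255 and 247 in total RNA, and Col2a1, the collagen of cartilage, which had 764, 223 and 308 in polysomal RNA, against 1389, 557 and 614 in total RNA. Fewer cells of a type and less RNA per cell cannot be told apart in such samples, but a ratio within a lysate compares 2 fractions of the same cells.

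Of the probe sets tested, 3102 (14.3%) were higher in polysomal RNA and 3687 (17.0%) were lower. Among genes, each represented by its brightest probe set, 2096 of 11583 (18.1%) were higher and 1696 (14.6%) were lower. The log2 ratios of genes had a median of 0.0012, the middle 80% lay between -0.58 and 0.58, and 1% lay under -1.20 and another 1% above 1.07. Changes beyond 2-fold were more often losses than gains, 246 lower genes against 141 higher ones. The 3 polysomal and 3 total RNA signals did not overlap for 5091 genes (44.0%), among them 1907 of the higher and 1523 of the lower genes. The split moved with the scale of the arrays, to 6704 higher and 617 lower probe sets with the spiked controls, against 3372 and 2937 with quantile normalization and 3528 and 3135 after median centring of the arrays. Without the lysate block, 2366 probe sets were called lower. Leaving out lysates 1, 2 and 3 in turn left 1497, 1312 and 1215 higher genes and 1151, 954 and 980 lower ones, and where such an omission moved the higher or lower count of a group by more than 1.5 times, that count is given beside it. Higher and lower below therefore mean relative to the bulk of transcripts, and the counts under another scaling are given beside a group where its median or the balance of its calls turned. The counts of a group are to be read beside 18.1% higher, 14.6% lower and 44.0% without overlap among all genes, and some groups lay near these shares. Counts and medians with the spiked controls are to be read beside those of all genes on that scale. These were 4351 higher and 224 lower of 11583 genes, with a median of 0.42. A shift of a group on that scale is therefore in part the shift of all genes.

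**Figure D1:**
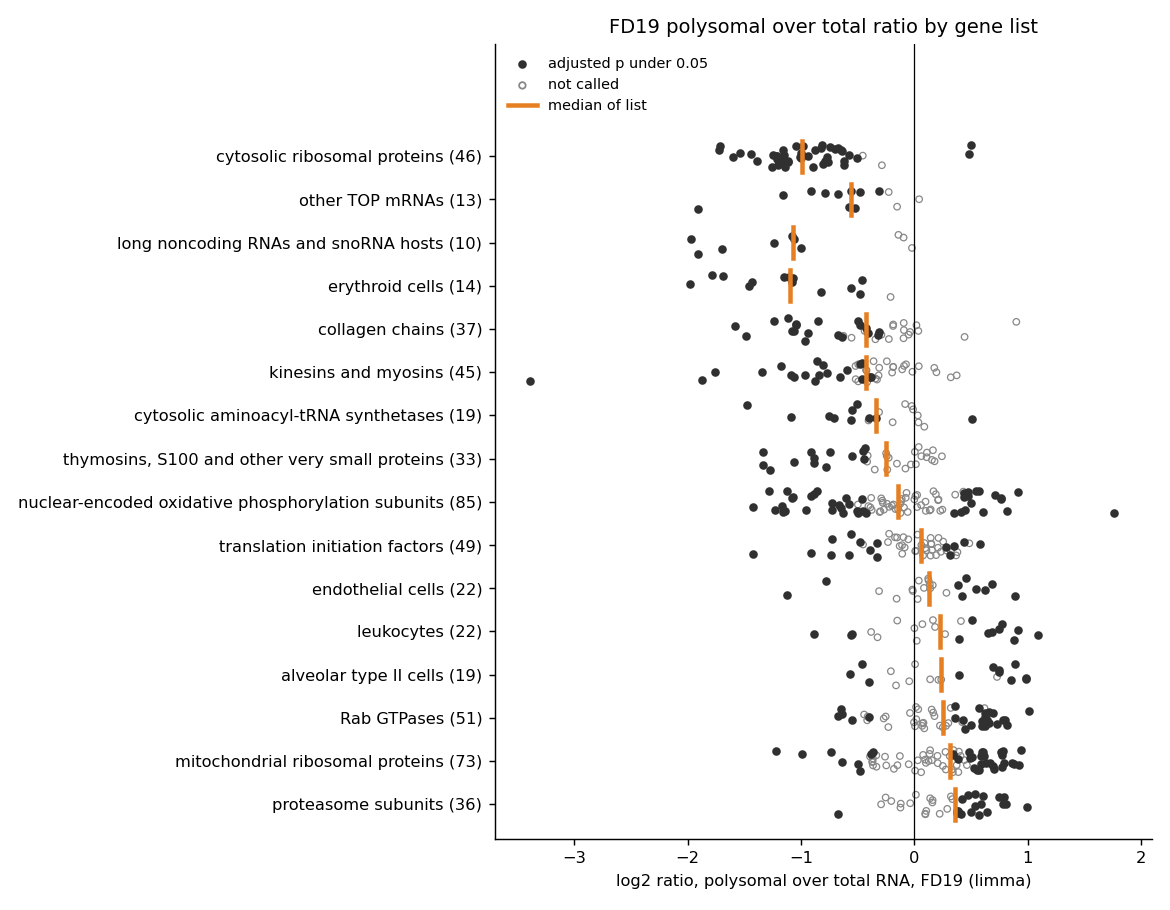
Log2 ratio of polysomal over total RNA at FD19 (x axis, limma, 3 lysates) for the measured genes of 16 gene lists, with the number of genes after each name. Each point is a gene, filled where the adjusted p was under 0.05, and the bar is the median of the list; ribosomal protein genes centre on -0.99 and proteasome genes on 0.35.

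Messages for the translation machinery were split. Of 46 measured genes of cytosolic ribosomal proteins, the structural subunits of the ribosome, 42 were lower in polysomal RNA, 2 were higher and 2 were not called (2, 1 and 1 higher without lysates 1, 2 and 3 in turn), with a median log2 ratio of -0.99 against 0.0012 for all genes. The 3 polysomal and 3 total RNA signals did not overlap for 44 of these 46 genes, and for 44.0% of all genes. Rpl41, the smallest ribosomal protein, had signals of 1770, 1430 and 1568 in polysomal RNA, against 5164, 5412 and 5098 in total RNA, a log2 ratio of -1.72 ± 0.13 (adjusted p = 3.05e-06). Rpl37a, of the large subunit, had 1621, 1612 and 1696 in polysomal RNA, against 4769, 5564 and 6070 in total RNA, a ratio of -1.72 ± 0.13 (adjusted p = 3.38e-06). Rps28, of the small subunit, had 2122, 1414 and 1446 in polysomal RNA, against 4999, 4426 and 5455 in total RNA, a ratio of -1.60 ± 0.16 (adjusted p = 2.04e-05). In each of these 3 genes every polysomal array lay below every total RNA array, by more than 2-fold in all lysates. Rplp0, the stalk protein often used as a reference gene, had 2212, 1884 and 1836 in polysomal RNA, against 4709, 4178 and 4839 in total RNA, a ratio of -1.21 ± 0.10 (adjusted p = 4.05e-06). These messages are among the brightest on the array. With quantile normalization the count fell to 25 lower genes with a median of -0.47, so the direction stayed and the size shrank. With the spiked controls the count fell to 24 with a median of -0.55, where all genes had a median of 0.42. The median was -0.83, -0.97 and -1.02 in lysates 1, 2 and 3.

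The higher ribosomal protein genes were both paralogues. Rpl7l1, a relative of Rpl7 that acts in ribosome assembly, had signals of 771, 815 and 716 in polysomal RNA, against 532, 565 and 528 in total RNA, a ratio of 0.50 ± 0.10 (adjusted p = 0.00192). Rps4y2, a copy of the small-subunit protein Rps4, had 264, 342 and 258 in polysomal RNA, against 230, 229.6 and 158 in total RNA, a ratio of 0.48 ± 0.15 (adjusted p = 0.0295). It was no longer called without lysate 2 (0.14), lysate 3 (0.191) or the lysate block (0.143), as adjusted p. Ribosomal protein genes have many near-identical pseudogenes, and probe sets may read more than one copy.

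The first bases of these messages were looked at because the TOP motif lies there. The windows below run from 15 bases before to 15 bases from the annotated transcription start in the RefSeq promoter table (GRCr8), read 5′ to 3′ on the strand of the gene. They show the 6 lower ribosomal protein genes of lowest ratio that hold a run of at least 8 letters that are all C or T, then Rpl41, Eef1a1 and Gas5, then the 2 higher genes, with the longest such run in capitals.
Rpl37a: gcatgcccgttgcgTCTCTTCCTCTTCggg
Rps28: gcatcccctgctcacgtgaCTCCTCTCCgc
Rps15: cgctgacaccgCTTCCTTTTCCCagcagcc
Rpl34: CCCCTTCCTTTTCCTCTTCCggggacggtg
Rplp0: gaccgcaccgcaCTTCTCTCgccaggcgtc
Rpl22: gtagtgcgCCCCCCTCCCTTTCTgcctcct
Rpl41: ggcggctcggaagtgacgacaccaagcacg
Eef1a1: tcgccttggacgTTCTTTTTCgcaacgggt
Gas5: cggcctttcggagctgtgaggcgaagctga
Rpl7l1: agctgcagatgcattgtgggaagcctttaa
Rps4y2: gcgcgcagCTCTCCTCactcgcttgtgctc
Their positions in GRCr8 are chr9:81748076-81748105 (plus strand), chr7:15311319-15311348 (minus strand), chr7:10068101-10068130 (minus strand), chr2:221962269-221962298 (minus strand), chr12:46718376-46718405 (minus strand) and chr5:168117946-168117975 (plus strand) for the first 6. Rpl41 lies at chr7:1563483-1563512 (minus strand), Eef1a1 at chr8:88225055-88225084 (minus strand), Gas5 at chr13:75836948-75836977 (plus strand), Rpl7l1 at chr9:21695703-21695732 (plus strand) and Rps4y2 at chr4:183000898-183000927 (plus strand).

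Such a run, searched on the strand of the gene only, lay in the window of 24 of 42 ribosomal protein genes with an entry (57.1%), against 981 of 8996 genes tested (10.9%). It was also found in 5 of 10 other TOP messages, in 9 of 57 mitochondrial ribosomal protein genes (15.8%) and in 3 of 32 proteasome genes (9.38%). Within the ribosomal protein genes, the median log2 ratio was -0.95 in the 24 with a run and -0.96 in the 18 without one. Across all genes it was -0.074 with a run and 0.020 without. The windows of Rpl41, Gas5 and Rpl7l1 hold no run, and annotated starts can be displaced by many bases. A match describes letters, not a working motif.

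Of 13 other TOP messages measured, 10 were lower and 0 higher, with a median of -0.56, which was -0.12 with the spiked controls, where 3 were lower, and -0.27 with quantile normalization, where 6 were. Eef1g, a subunit of the elongation factor complex that recharges eEF1A, had signals of 2053, 1737 and 1591 in polysomal RNA, against 4128, 3507 and 4353 in total RNA, a ratio of -1.16 ± 0.10 (adjusted p = 8.32e-06). Eef2, which drives translocation of the ribosome, had 2078, 1760 and 1706 in polysomal RNA, against 3718, 2881 and 2995 in total RNA, a ratio of -0.79 ± 0.10 (adjusted p = 8.05e-05). Vim, the intermediate filament protein of mesenchyme, had 2150, 1903 and 2154 in polysomal RNA, against 4615, 3256 and 3892 in total RNA, a ratio of -0.91 ± 0.092 (adjusted p = 2.04e-05). In these 3 genes no polysomal array reached the level of a total RNA array. Eef1a1, which delivers aminoacyl-tRNA, had 3538, 3880 and 4326 in polysomal RNA, against 5993, 6242 and 6405 in total RNA, a ratio of -0.67 ± 0.092 (adjusted p = 1.70e-04) that became 0.067 with quantile normalization (0.514 as adjusted p). Its fractions did not overlap either, and the calls of Eef2 and Eef1a1 were lost with the spiked controls.

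The initiation factors, which recruit the ribosome, were listed together with regulators such as the eIF2 kinases and the eIF4E-binding proteins. These genes were mixed, with 5 higher and 10 lower of 49 (4, 2 and 1 higher and 5, 9 and 6 lower without lysates 1, 2 and 3 in turn, and 24 higher and 1 lower with the spiked controls) and a median of 0.062. The shares were 10.2% higher and 20.4% lower, beside 18.1% and 14.6% of all genes. Eif3a, the largest subunit of the scaffold factor eIF3, had signals of 716, 524 and 505 in polysomal RNA, against 1850, 1409 and 1439 in total RNA, a ratio of -1.43 ± 0.13 (adjusted p = 8.37e-06). Eif4ebp2, an inhibitor that binds the cap-binding protein, had 495, 364 and 383 in polysomal RNA, against 813, 707 and 822 in total RNA, a ratio of -0.92 ± 0.15 (adjusted p = 5.13e-04). Eif2b1, of the exchange factor that reloads eIF2, was higher, with 441, 516 and 456 in polysomal RNA, against 344, 299 and 297 in total RNA, a ratio of 0.58 ± 0.12 (adjusted p = 0.00337). In all 3 the groups did not overlap, and the call of Eif4ebp2 was lost with the spiked controls.

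The cytosolic aminoacyl-tRNA synthetases, which charge tRNAs with amino acids, were divided, with 9 of 19 lower and 1 higher (1, 0 and 0 higher and 5, 5 and 5 lower without lysates 1, 2 and 3 in turn, and 2 higher and 2 lower with the spiked controls) and a median of -0.34, which became 0.092 with the spiked controls, where all genes had a median of 0.42. Eprs1, the bifunctional enzyme for glutamate and proline, had signals of 399.2, 537 and 491 in polysomal RNA, against 1524, 1168 and 1294 in total RNA, a ratio of -1.47 ± 0.17 (adjusted p = 5.60e-05), lower on its 3 of 3 probe sets. Vars1, for valine, had 99.4, 95.3 and 126 in polysomal RNA, against 206, 254 and 238 in total RNA, a ratio of -1.09 ± 0.17 (adjusted p = 4.95e-04). Both were clear of overlap. Their median was -0.054 at FD22 and 0.12 at P1, and the difference between stages was called for 0 of them.

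Mitochondrial ribosomal proteins, which translate the mitochondrial genome, were mostly higher where they were called. Of 73, 27 were higher and 8 lower (6, 4 and 5 lower without lysates 1, 2 and 3 in turn), with a median of 0.31. Mrps9 had signals of 392.4, 411 and 369 in polysomal RNA, against 199.1, 186 and 219.6 in total RNA, a ratio of 0.94 ± 0.13 (adjusted p = 1.64e-04). Mrpl58, which also acts as a release factor, had a ratio of 0.88 ± 0.13 (adjusted p = 2.70e-04). The lower members included Mrpl42, with 179, 141 and 138 in polysomal RNA, against 368, 380.3 and 332.6 in total RNA and a ratio of -1.22 ± 0.16 (adjusted p = 1.27e-04), and Mrpl33, with a ratio of -0.99 ± 0.16 (adjusted p = 4.25e-04). The groups did not overlap for these 4 genes.

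**Figure D2:**
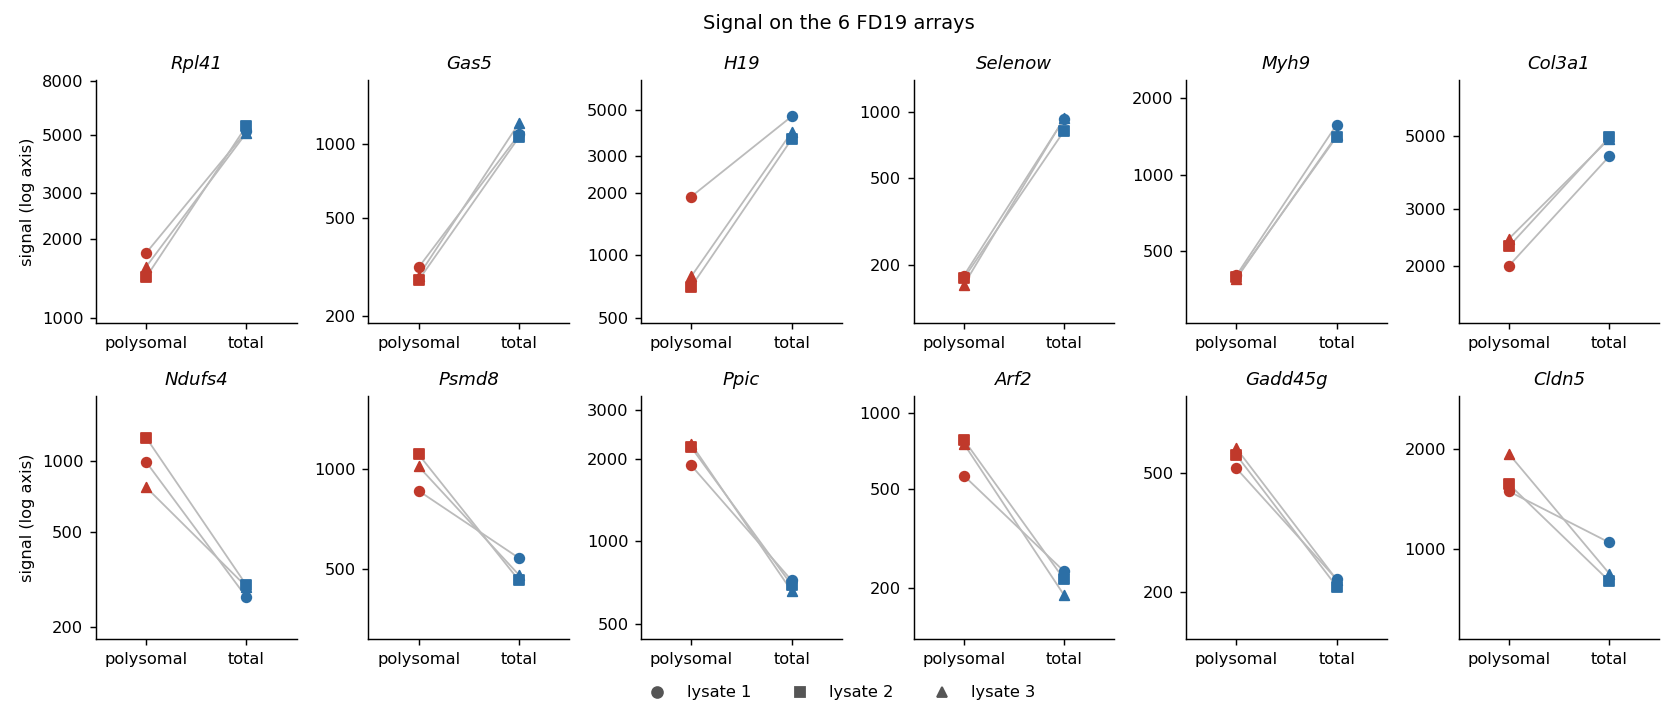
Signal (y axis, log scale) of 12 genes on the 3 polysomal arrays (left, red) and the 3 total RNA arrays (right, blue) at FD19, with lines joining the fractions of 1 lysate. The upper row shows genes that were lower in polysomal RNA in all 3 lysates and the lower row genes that were higher, with no overlap between fractions in any panel. For H19, Selenow, Ndufs4, Ppic and Arf2 the rule that named them required this.

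Nuclear genes of oxidative phosphorylation, the respiratory chain and ATP synthase with assembly factors of cytochrome oxidase, moved in both directions, with 17 higher and 25 lower of 85 (12, 11 and 10 higher and 21, 17 and 16 lower without lysates 1, 2 and 3 in turn, and 29 higher and 10 lower with the spiked controls). Their median was -0.14, and 0.29 with the spiked controls. Ndufs4, an accessory subunit of complex I, had signals of 987, 1248 and 773 in polysomal RNA, against 267, 299.8 and 295 in total RNA, a ratio of 1.76 ± 0.24 (adjusted p = 1.76e-04) or 3.38-fold. Ndufb6 and Ndufc2, also of complex I, had ratios of 0.91 ± 0.13 (adjusted p = 2.56e-04) and 0.82 ± 0.15 (adjusted p = 0.00141). Uqcrh, the hinge protein of complex III, was lower, with 1216, 635 and 635 in polysomal RNA, against 2190, 1981 and 2229 in total RNA and a ratio of -1.43 ± 0.25 (adjusted p = 9.53e-04). Cox8a, a very small subunit of cytochrome oxidase, had 1405, 802 and 968 in polysomal RNA, against 2774, 2073 and 2467 in total RNA, a ratio of -1.23 ± 0.17 (adjusted p = 1.51e-04). Cox14, which assembles that enzyme, had a ratio of -1.28 ± 0.15 (adjusted p = 4.82e-05). Both mitochondrially encoded genes on the array, which are translated inside the organelle and not by cytosolic ribosomes, were low in polysomal RNA. COX2 had signals of 2223, 1481 and 1821 in polysomal RNA, against 6364, 7003 and 7984 in total RNA, a ratio of -1.96 ± 0.18 (adjusted p = 8.37e-06). COX1 had 3789, 2572 and 3461 in polysomal RNA, against 6658, 6861 and 7343 in total RNA, a ratio of -1.10 ± 0.13 (adjusted p = 5.32e-05).

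Many RNAs that are not translated into protein were lower in the polysomal fraction. Of 108 genes annotated as long noncoding RNA, 42 (38.9%) were lower and 0 higher, with a median of -0.55, which was -0.17 with the spiked controls. For 11413 protein-coding genes the shares were 14.4% lower and 18.3% higher, with a median of 0.0062. H19, the imprinted RNA of fetal tissue whose signals are given above, had a ratio of -1.97 ± 0.16 (adjusted p = 5.44e-06). Gas5, a host gene of small nucleolar RNAs known as a TOP transcript, had 317, 281 and 293 in polysomal RNA, against 1097, 1070 and 1220 in total RNA, a ratio of -1.91 ± 0.15 (adjusted p = 3.38e-06). Snhg11, another such host, had 177, 81.2 and 126 in polysomal RNA, against 439, 379 and 414 in total RNA, a ratio of -1.70 ± 0.24 (adjusted p = 2.19e-04), lower on 4 of its 4 probe sets. Not all noncoding RNAs behaved so: Meg3 and Miat had ratios of -0.10 ± 0.16 and -0.14 ± 0.23, which were not called (0.671 and 0.675 as adjusted p). Of a list of 10 long noncoding RNAs and hosts of small nucleolar RNAs, 7 were lower. Of 5218 probe sets with no gene in the annotation, 22.7% were lower and 7.63% higher.

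Of 33 genes of thymosins, S100 proteins, metallothioneins and similar small proteins, 13 were lower and 0 higher (4 higher and 4 lower with the spiked controls), with a median of -0.25, which became 0.15 with the spiked controls. Mt2A, a metal-binding metallothionein, had signals of 203, 131 and 261 in polysomal RNA, against 483, 482 and 499 in total RNA, a ratio of -1.33 ± 0.18 (adjusted p = 1.34e-04). Atox1, the copper chaperone, had 381, 276 and 200.3 in polysomal RNA, against 710, 654 and 667 in total RNA, a ratio of -1.27 ± 0.21 (adjusted p = 5.47e-04). S100a13, a calcium-binding protein, had a ratio of -1.33 ± 0.23 (adjusted p = 8.89e-04). All 3 were lower in each of the lysates. Tmsb4x, the actin-binding thymosin, had 3782, 3784 and 4210 in polysomal RNA, against 6360, 6484 and 6870 in total RNA, a ratio of -0.74 ± 0.10 (adjusted p = 1.67e-04) that was -0.059 with quantile normalization. Smim27, a small membrane protein, had 245, 207 and 247 in polysomal RNA, against 831, 1040 and 1005 in total RNA, a ratio of -2.01 ± 0.15 (adjusted p = 3.05e-06). Apart from Tmsb4x, whose call was lost with quantile normalization and with the spiked controls, these genes stayed called under every setting tried. The lengths of the proteins were not used here.

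Selenow, a small selenoprotein of the thioredoxin-like family, had signals of 179, 174 and 162 in polysomal RNA, against 933, 822 and 938 in total RNA, a ratio of -2.35 ± 0.14 (adjusted p = 1.13e-06). The 19 measured selenoprotein messages, which recode a stop codon to insert selenocysteine, were otherwise mixed, with 4 higher, 6 lower (8 higher and 1 lower with the spiked controls) and a median of -0.025. The peroxidases Gpx1 and Gpx4 had ratios of -0.88 ± 0.14 (adjusted p = 5.50e-04) and -0.80 ± 0.17 (adjusted p = 0.00289), both lost with the spiked controls. Txnrd1, thioredoxin reductase, had 654, 698 and 649 in polysomal RNA, against 449, 412 and 391.7 in total RNA, a ratio of 0.67 ± 0.14 (adjusted p = 0.00269), and Selenos and Selenok, of the endoplasmic reticulum membrane, had ratios of 0.88 ± 0.14 (adjusted p = 4.82e-04) and 0.63 ± 0.11 (adjusted p = 9.44e-04). In Txnrd1, Selenos and Selenok every polysomal array lay above every total RNA array.

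Among messages for motor proteins, 20 of 45 kinesin and myosin genes were lower, 0 were higher and 25 were not called, with a median of -0.43. With the spiked controls 8 were lower and 4 higher, with a median of -0.013. Myh9, the nonmuscle myosin heavy chain of most cells, had signals of 402, 394 and 391 in polysomal RNA, against 1571, 1408 and 1427 in total RNA, a ratio of -1.88 ± 0.15 (adjusted p = 5.17e-06), and its relative Myh10 had 317, 331 and 255 in polysomal RNA, against 997, 1047 and 1030 in total RNA, a ratio of -1.76 ± 0.20 (adjusted p = 5.07e-05). Myh11, the smooth muscle heavy chain, had a ratio of -1.18 ± 0.19 (adjusted p = 4.59e-04). Myh6, the heavy chain of the atrium, had a ratio of -1.35 ± 0.19 (adjusted p = 2.38e-04). None of these 4 genes had overlapping fractions. Myh1, named for a skeletal muscle heavy chain, had the lowest ratio of the genes that met the naming rule, with 221, 92.9 and 131 in polysomal RNA, against 1396, 1434 and 1724 in total RNA and a ratio of -3.39 ± 0.25 (adjusted p = 2.68e-06), lower on 5 of 5 probe sets. Muscle heavy chain genes are near-identical over long stretches, so which of them the Myh1 probe sets read is uncertain.

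Of 37 collagen chains, largely products of the fetal mesenchyme, 19 were lower, 0 higher and 18 not called (2, 0 and 0 higher without lysates 1, 2 and 3 in turn), with a median of -0.43, which was -0.024 with the spiked controls, where 10 were lower and 2 higher. Col1a1 and Col1a2, the chains of fibrillar type I collagen, had ratios of -1.06 ± 0.092 (adjusted p = 6.86e-06) and -0.97 ± 0.10 (adjusted p = 2.01e-05). Col3a1, of reticular fibres, had signals of 2007, 2301 and 2429 in polysomal RNA, against 4341, 4964 and 4910 in total RNA, a ratio of -1.08 ± 0.090 (adjusted p = 6.39e-06). Every polysomal array lay below every total RNA array in these 3 genes. Col4a1 and Col4a2, which form the network of basement membranes, were measured apart. Col4a1 had 837, 758 and 870.4 in polysomal RNA, against 2093, 1880 and 1859 in total RNA, a ratio of -1.24 ± 0.10 (adjusted p = 6.59e-06). Col4a2 had 506, 293 and 377 in polysomal RNA, against 1456, 953 and 1126 in total RNA, a ratio of -1.59 ± 0.12 (adjusted p = 2.72e-06). Col5a1, a minor fibrillar chain, had a ratio of -1.49 ± 0.10 (adjusted p = 1.86e-06). The fractions of these 3 genes did not overlap either.

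Other matrix genes divided. Fn1, fibronectin, had signals of 1013, 793 and 1071 in polysomal RNA, against 2244, 1788 and 2166 in total RNA, a ratio of -1.11 ± 0.10 (adjusted p = 6.59e-06). Fbn2, the fibrillin of fetal microfibrils, had 781, 867 and 722 in polysomal RNA, against 1864, 1526 and 1506 in total RNA, a ratio of -1.04 ± 0.13 (adjusted p = 8.78e-05). Nid2, a linker of basement membranes, had a ratio of -1.04 ± 0.11 (adjusted p = 2.16e-05). Eln, elastin, had 1030, 1012 and 1080 in polysomal RNA, against 1831, 1279 and 1378 in total RNA, a ratio of -0.50 ± 0.13 (adjusted p = 0.00826). This call was lost without lysate 1 (0.0912 as adjusted p) and with the spiked controls. The smaller microfibril proteins Mfap2 and Mfap5 were higher, Mfap2 with 1930, 1280 and 1400 in polysomal RNA, against 994, 830.2 and 825 in total RNA and a ratio of 0.78 ± 0.11 (adjusted p = 2.54e-04). Mfap5 had a ratio of 0.77 ± 0.16 (adjusted p = 0.00258). In all, 7 of 32 were higher and 11 lower (6, 3 and 3 higher and 7, 10 and 8 lower without lysates 1, 2 and 3 in turn, and 10 higher and 3 lower with the spiked controls). Laminins held 1 higher and 2 lower of 10, or 10% and 20% beside 18.1% and 14.6% of all genes (0, 0 and 0 higher and 2, 1 and 1 lower without lysates 1, 2 and 3 in turn, and 3 higher and 0 lower with the spiked controls), and of these Lamc1, with a ratio of -0.41 ± 0.10, was 0.030 with the spiked controls.

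Of 36 subunits of the proteasome, which degrades tagged proteins, 18 were higher, 1 was lower and 17 were not called, with a median of 0.35 (17, 9 and 12 higher and 0, 1 and 0 lower without lysates 1, 2 and 3 in turn). Psmd8, of the regulatory particle, had signals of 859.9, 1105 and 1017 in polysomal RNA, against 541, 464 and 481 in total RNA, a ratio of 0.99 ± 0.13 (adjusted p = 9.53e-05). Psmb2, of the catalytic core, had 1665, 1555 and 1535 in polysomal RNA, against 948, 918 and 842 in total RNA, a ratio of 0.81 ± 0.094 (adjusted p = 5.09e-05). Psmb9, a core subunit of the immunoproteasome, had 114, 142 and 121 in polysomal RNA, against 75.3, 71.9 and 63.3 in total RNA, a ratio of 0.79 ± 0.15 (adjusted p = 0.0014). In all 3 the fractions did not overlap. The lower member was Psmd1, the large scaffold of the regulatory particle, with a ratio of -0.67 ± 0.18 (adjusted p = 0.0126). The call did not hold without lysate 1 or lysate 3 and with the spiked controls. Genes of the Usp series, nearly all ubiquitin-specific proteases, which remove the tag, held 2 higher and 9 lower of 40 (1, 1 and 1 higher and 5, 3 and 5 lower without lysates 1, 2 and 3 in turn, and 11 higher and 0 lower with the spiked controls). They were matched by symbol and include Usp6nl, which is no such protease. Usp30, which acts on mitochondria, was higher with a ratio of 0.74 ± 0.15 (adjusted p = 0.00291).

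Of 51 Rab GTPases, the switches of vesicle transport, 20 were higher and 5 lower (3, 3 and 1 lower without lysates 1, 2 and 3 in turn), with a median of 0.25. Rab11a, of recycling endosomes, had signals of 1539, 1504 and 1676 in polysomal RNA, against 877, 875 and 918 in total RNA, a ratio of 0.82 ± 0.11 (adjusted p = 1.20e-04). Rab38, known for the lamellar bodies of type II cells, had 476, 501 and 451 in polysomal RNA, against 261, 334 and 227 in total RNA, a ratio of 0.80 ± 0.13 (adjusted p = 4.67e-04). Rab27a, of secretory granules, had 193, 208 and 369.8 in polysomal RNA, against 108, 116 and 137 in total RNA, a ratio of 1.01 ± 0.13 (adjusted p = 1.18e-04), with the highest value on the polysomal array of lysate 3 and a ratio of 0.82 without that lysate (0.00277 as adjusted p). The lower member Rab28 had a ratio of -0.67 ± 0.14 (adjusted p = 0.00236). It was no longer called with the spiked controls. All 4 genes had fractions that did not overlap.

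Chaperones of the endoplasmic reticulum, where secreted proteins fold, held 3 higher and 8 lower genes of 21 (1, 1 and 2 higher and 1, 7 and 6 lower without lysates 1, 2 and 3 in turn, and 4 higher and 4 lower with quantile normalization, and 10 higher and 1 lower with the spiked controls). Pdia3, a disulfide isomerase, had signals of 1219, 1442 and 1330 in polysomal RNA, against 2406, 2630 and 2977 in total RNA, a ratio of -1.0 ± 0.12 (adjusted p = 7.44e-05). Hspa5, the luminal Hsp70, had 1460, 2214 and 1892 in polysomal RNA, against 2659, 2638 and 2986 in total RNA, a ratio of -0.59 ± 0.15 (adjusted p = 0.0094). Its adjusted p was 0.0872 without lysate 1, 0.0618 without lysate 3, 0.0729 with quantile normalization and 0.507 with the spiked controls. Hspa5 had ratios of 0.27 at FD22 and 0.42 at P1, but the difference between stages was called for 0 of the chaperones. Manf, a secreted survival factor, had 789, 989 and 751 in polysomal RNA, against 395, 572 and 582 in total RNA, a ratio of 0.71 ± 0.16 (adjusted p = 0.00507). This call was lost without lysate 1 and without the lysate block. Of these 3 chaperones only Pdia3 kept its call whichever lysate was left out.

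Messages listed for a known regulatory element were mixed. Of 6 with an iron-responsive element, the hairpin that iron regulatory proteins bind, 3 were lower and 0 higher (2, 1 and 1 lower without lysates 1, 2 and 3 in turn, and 1 higher and 0 lower with the spiked controls). Their median was -0.31, and 0.12 with the spiked controls. They were Alas2, Cdc14a, Epas1, Slc11a2, Slc40a1 and Tfrc, without Fth1 or Ftl1, which were not measured. Where the element lies in each message, and whether it acts on translation there, was not considered. Of 16 with upstream open reading frames, which can hold ribosomes back from the main coding region, 6 were higher and 5 lower (2, 0 and 3 higher and 2, 2 and 4 lower without lysates 1, 2 and 3 in turn, and 5 higher and 4 lower with quantile normalization, and 7 higher and 0 lower with the spiked controls). Atf4, the stress factor with the best-known such frames, had signals of 412, 303 and 342 in polysomal RNA, against 743, 574 and 560 in total RNA, a ratio of -0.82 ± 0.11 (adjusted p = 1.52e-04). The call did not hold with the spiked controls. Odc1, the first enzyme of polyamine synthesis, had 879, 794 and 799.6 in polysomal RNA, against 595, 512 and 560 in total RNA, a ratio of 0.57 ± 0.14 (adjusted p = 0.00801). It was no longer called without lysate 2 (0.056 as adjusted p). Tfrc, the transferrin receptor, had a ratio of -0.46 ± 0.15 (adjusted p = 0.0306) and lost its call without any 1 of the lysates.

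Among immediate early genes, which respond within minutes to growth or stress signals, 8 were higher and 6 lower of 35 (6, 6 and 5 higher and 3, 2 and 2 lower without lysates 1, 2 and 3 in turn, and 11 higher and 0 lower with the spiked controls). The shares, 22.9% and 17.1%, lay near the 18.1% and 14.6% of all genes. The 3 members of the Gadd45 family, stress sensors of the cell cycle, were all higher. Gadd45g had signals of 519.8, 576 and 606 in polysomal RNA, against 221, 209 and 220.4 in total RNA, a ratio of 1.36 ± 0.14 (adjusted p = 2.74e-05). Gadd45b had 1062, 760.4 and 832 in polysomal RNA, against 373, 404 and 376 in total RNA, a ratio of 1.18 ± 0.18 (adjusted p = 3.62e-04). Gadd45a had 195, 142 and 155 in polysomal RNA, against 112, 75.2 and 76.0 in total RNA, a ratio of 0.87 ± 0.15 (adjusted p = 7.53e-04). No polysomal array overlapped with total RNA in any of them. Btg1, an inhibitor of proliferation, was lower, with 2306, 2317 and 2458 in polysomal RNA, against 3477, 3480 and 3934 in total RNA and a ratio of -0.62 ± 0.083 (adjusted p = 1.36e-04). It was -0.21 with quantile normalization (0.0562 as adjusted p) and -0.18 with the spiked controls (0.455 as adjusted p). Zfp36, which destabilises short-lived mRNAs, had a ratio of -0.54 ± 0.12 (adjusted p = 0.00423), a call lost with the spiked controls.

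Zinc finger genes of the Zfp and Znf series, mostly transcription factors, held 7 higher and 30 lower of 197 (2, 2 and 1 higher and 26, 12 and 13 lower without lysates 1, 2 and 3 in turn, and 39 higher and 1 lower with the spiked controls), or 3.55% and 15.2% beside 18.1% and 14.6% of all genes. Zfp330, a nucleolar protein, had a ratio of 0.59 ± 0.11 (adjusted p = 0.00144) and Zfp575 one of -1.23 ± 0.23 (adjusted p = 0.00148). Splicing factors of the hnRNP and SR families held 4 higher and 3 lower of 29 (4, 2 and 2 higher without lysates 1, 2 and 3 in turn). Tra2a and Srsf9, activators of exon inclusion, had ratios of 0.81 ± 0.16 (adjusted p = 0.00204) and 0.67 ± 0.12 (adjusted p = 0.00105), and Srsf3 had one of -1.12 ± 0.24 (adjusted p = 0.00395), lost with the spiked controls. Of 13 histone genes 2 were higher, H2ac25 with 0.81 ± 0.12 (adjusted p = 2.85e-04) and H1f2 with 0.50 ± 0.10 (adjusted p = 0.0024), and 4 lower (1, 1 and 0 lower without lysates 1, 2 and 3 in turn, and 3 higher and 2 lower with quantile normalization, and 5 higher and 0 lower with the spiked controls).

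Genes of the cell cycle and of DNA replication were divided, with 10 higher and 11 lower of 46 (9, 6 and 8 higher and 7, 8 and 6 lower without lysates 1, 2 and 3 in turn, and 18 higher and 1 lower with the spiked controls). Pbk, a mitotic kinase, had signals of 336, 488 and 441 in polysomal RNA, against 176, 212 and 220.1 in total RNA, a ratio of 1.03 ± 0.15 (adjusted p = 2.47e-04). Ccnd3, a cyclin of the G1 phase, and Gmnn, which blocks repeated replication, had ratios of 0.70 ± 0.11 (adjusted p = 3.54e-04) and 0.68 ± 0.12 (adjusted p = 8.64e-04). Cdc25b, the phosphatase that starts mitosis, was lower, with 299, 221 and 177 in polysomal RNA, against 783, 498 and 475 in total RNA and a ratio of -1.31 ± 0.13 (adjusted p = 1.4e-05). Mcm2, of the replicative helicase, and Rrm1, of ribonucleotide reductase, had ratios of -0.75 ± 0.14 (adjusted p = 0.00119) and -0.80 ± 0.18 (adjusted p = 0.00495), both lost with the spiked controls.

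The messages of type II cells were partly higher in polysomal RNA, with 8 higher and 3 lower of 19 and a median of 0.24. Without lysate 3 the count was 5 higher and 2 lower, and the median within lysates was 0.023, 0.28 and 0.42 for lysates 1, 2 and 3. Sftpa1, a collectin of surfactant, had signals of 1385, 1600 and 1911 in polysomal RNA, against 706, 819 and 929 in total RNA, a ratio of 0.99 ± 0.10 (adjusted p = 1.89e-05). Its ratio without lysate 3 was 0.96 (6.52e-04 as adjusted p). Sftpb, the hydrophobic protein that spreads the film, had 1355, 2184 and 2557 in polysomal RNA, against 905, 1212 and 1080 in total RNA, a ratio of 0.89 ± 0.12 (adjusted p = 1.76e-04), and 0.71 without lysate 3 (0.00409 as adjusted p), while its other probe set was called lower. Sftpd, the other collectin, had 1308, 1957 and 2569 in polysomal RNA, against 1152, 1012 and 1190 in total RNA, a ratio of 0.75 ± 0.15 (adjusted p = 0.00227), and 0.56 without lysate 3 (0.0383 as adjusted p). Napsa, the protease that processes surfactant protein B, had 424, 308 and 990.2 in polysomal RNA, against 417, 166 and 231 in total RNA, a ratio of 0.99 ± 0.26 (adjusted p = 0.011) that was 0.45 without lysate 3 (0.141 as adjusted p), and its fractions overlapped.

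Sftpc, whose signals are given above, was lower with a ratio of -0.40 ± 0.12 (adjusted p = 0.0239), but with quantile normalization it was higher, 0.35 (0.00398 as adjusted p), and the call was lost without any 1 of the lysates, with a ratio of -0.43 without lysate 3. Its direction is therefore not settled by these arrays. Nkx2-1, the transcription factor of lung epithelium, had signals of 971, 1087 and 1076 in polysomal RNA, against 1534, 1560 and 1542 in total RNA, a ratio of -0.56 ± 0.093 (adjusted p = 5.81e-04). Fasn, fatty acid synthase, had a ratio of -0.46 ± 0.11 (adjusted p = 0.00726). Both calls were lost with the spiked controls. The surfactant collectin messages were thus higher in every lysate while the epithelial factor was lower in every lysate.

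**Figure D3:**
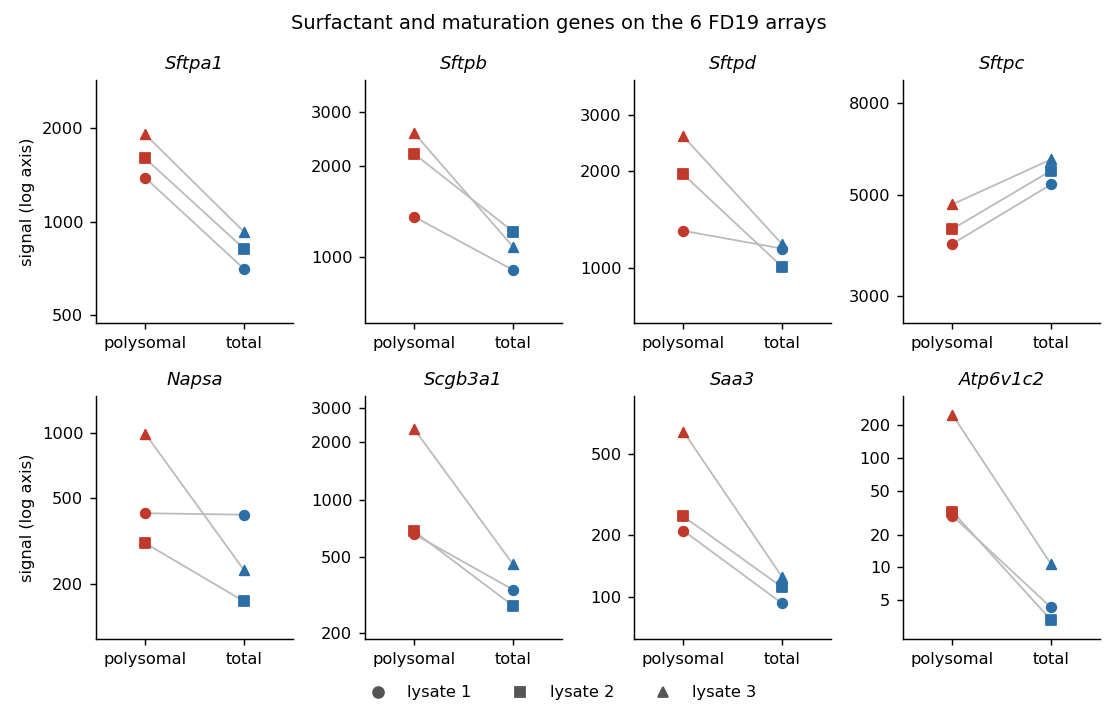
Signal (y axis, log scale) of 8 surfactant and maturation genes on the polysomal (left, red) and total RNA (right, blue) arrays at FD19, with lines joining the fractions of 1 lysate. The polysomal array of lysate 3 (triangle) is the highest of the 6 for all panels but Sftpc, with Scgb3a1 at 2334 there against 657 and 680 on the other polysomal arrays.

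Type I markers held 3 higher and 1 lower of 12 (25% and 8.33%, beside 18.1% and 14.6% of all genes), and 2 higher without lysate 3. Their median was -0.049, 0.14 and 0.58 in lysates 1, 2 and 3, so it was highest in the lysate whose polysomal array stood apart, and it was 0.22 with all lysates and 0.065 without lysate 3. Pdpn, the membrane glycoprotein podoplanin, had signals of 900.3, 725 and 1068 in polysomal RNA, against 403, 648 and 656 in total RNA, a ratio of 0.67 ± 0.14 (adjusted p = 0.00363), and 0.65 without lysate 3 (0.0292 as adjusted p). Emp2 had 1686, 1613 and 1865 in polysomal RNA, against 1032, 1177 and 1214 in total RNA, a ratio of 0.59 ± 0.10 (adjusted p = 5.45e-04), and 0.58 without lysate 3 (0.00837 as adjusted p). Vegfa, the endothelial growth factor, was lower, with 743, 590.2 and 751 in polysomal RNA, against 998, 871 and 967 in total RNA and a ratio of -0.45 ± 0.10 (adjusted p = 0.00424), and -0.49 without lysate 3. This call was lost without the lysate block and with the spiked controls. Airway markers held 3 higher and 2 lower of 12 (0, 1 and 1 lower without lysates 1, 2 and 3 in turn), or 25% and 16.7%, not far from the shares of all genes. Cldn10, a tight junction protein of club cells, had 412, 413 and 408 in polysomal RNA, against 225, 189 and 193 in total RNA, a ratio of 1.01 ± 0.11 (adjusted p = 3.89e-05), and 0.98 without lysate 3 (0.00126 as adjusted p). Scgb3a1, a secretoglobin of airway cells, had 657, 680 and 2334 in polysomal RNA, against 337, 278 and 458 in total RNA, a ratio of 1.52 ± 0.23 (adjusted p = 2.78e-04), and 1.11 without lysate 3 (0.00405 as adjusted p).

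Endothelial markers held 7 higher and 2 lower of 22 (5, 5 and 3 higher and 1, 2 and 1 lower without lysates 1, 2 and 3 in turn). The shares were 31.8% and 9.09%, beside 18.1% and 14.6% of all genes. Cldn5, the claudin of vessels, had signals of 1489, 1565 and 1932 in polysomal RNA, against 1043, 798 and 840.2 in total RNA, a ratio of 0.89 ± 0.12 (adjusted p = 1.18e-04). Tie1, a receptor of vessel remodelling, and the transcription factor Sox18 had ratios of 0.68 ± 0.11 (adjusted p = 4.85e-04) and 0.63 ± 0.13 (adjusted p = 0.00233). Vwf, the large clotting glycoprotein, was lower, with 125, 65.2 and 89.8 in polysomal RNA, against 183, 204 and 226 in total RNA and a ratio of -1.12 ± 0.21 (adjusted p = 0.00147). The contractile genes of smooth muscle split, 6 higher and 6 lower of 17 (6, 2 and 3 higher and 4, 4 and 3 lower without lysates 1, 2 and 3 in turn, and 6 higher and 1 lower with the spiked controls), with the small proteins Myl9, at 1648, 1078 and 1067 in polysomal RNA, against 819.8, 538 and 595 in total RNA with a ratio of 0.94 ± 0.10 (adjusted p = 2.53e-05), and Tagln, with a ratio of 0.79 ± 0.13 (adjusted p = 5.44e-04), among the higher genes and the heavy chain Myh11 among the lower.

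Of 23 mesenchymal and morphogen genes 8 were higher and 2 lower (6, 5 and 5 higher and 1, 2 and 1 lower without lysates 1, 2 and 3 in turn). The shares were 34.8% and 8.7%, beside 18.1% and 14.6% of all genes. Foxf1, the mesenchymal transcription factor downstream of hedgehog signalling, had signals of 791, 745 and 717 in polysomal RNA, against 586, 511 and 374 in total RNA, a ratio of 0.63 ± 0.13 (adjusted p = 0.00269). Bmp5, a ligand, had a ratio of 0.58 ± 0.11 (adjusted p = 0.00172). Shh, the epithelial hedgehog ligand, had 62.6, 85.8 and 78.3 in polysomal RNA, against 32.4, 20.3 and 47.6 in total RNA, a ratio of 1.11 ± 0.34 (adjusted p = 0.0231). The call did not hold without any 1 of the lysates, and the total RNA signals of Shh alone would not have passed the filter of 40.9. Igf1r, the growth factor receptor, was lower with -0.64 ± 0.13 (adjusted p = 0.00217), a call lost without the lysate block and with the spiked controls. Imprinted and fetal growth genes held 0 higher and 6 lower of 18 (0, 1 and 0 higher without lysates 1, 2 and 3 in turn, and 0 higher and 4 lower with quantile normalization, and 4 higher and 2 lower with the spiked controls), with a median of -0.21 that was 0.22 with the spiked controls. Igf2, the fetal growth factor, had 2614, 1835 and 1754 in polysomal RNA, against 3776, 2635 and 2820 in total RNA, a ratio of -0.58 ± 0.10 (adjusted p = 7.77e-04). It was -0.27 with quantile normalization (0.0981 as adjusted p) and -0.14 with the spiked controls (0.576 as adjusted p). Nnat, neuronatin, had a ratio of -1.28 ± 0.16 (adjusted p = 8.55e-05).

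Erythroid messages were lower in polysomal RNA. Of 14 markers of red cell precursors, 13 were lower and 0 higher, with a median of -1.09 that was -0.69 with the spiked controls. Hbe1, an embryonic globin, had signals of 729.8, 782 and 687 in polysomal RNA, against 2674, 2839 and 3238 in total RNA, a ratio of -1.98 ± 0.13 (adjusted p = 1.86e-06). Hbg1, also of the beta family, had 299, 255 and 161 in polysomal RNA, against 784, 627 and 514 in total RNA, a ratio of -1.43 ± 0.18 (adjusted p = 9.15e-05). Ahsp, the chaperone of alpha globin, had 443, 288 and 210.2 in polysomal RNA, against 1365, 922 and 916 in total RNA, a ratio of -1.79 ± 0.18 (adjusted p = 1.89e-05). The fractions of these 3 genes did not overlap, which for Hbe1 the naming rule for the lowest ratios required. Hbb, the adult-type beta globin, had 4822, 4746 and 5454 in polysomal RNA, against 6934, 7334 and 7832 in total RNA, a ratio of -0.56 ± 0.11 (adjusted p = 0.00229) that was 0.069 with quantile normalization and was not called without the lysate block or with the spiked controls. The globin genes are near-identical in sequence, so signal may be shared between them. Leukocyte markers held 9 higher and 3 lower of 22 (1, 0 and 2 lower without lysates 1, 2 and 3 in turn). Cd74, the invariant chain of antigen presentation, had 518, 490.2 and 618 in polysomal RNA, against 282, 229.6 and 242 in total RNA, a ratio of 1.09 ± 0.11 (adjusted p = 1.46e-05), and the complement genes C1qa and C1qc of macrophages had ratios of 0.91 ± 0.11 (adjusted p = 6.05e-05) and 0.88 ± 0.13 (adjusted p = 3.30e-04).

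Heart and skeletal muscle markers held 6 higher and 1 lower of 16 (4, 5 and 3 higher without lysates 1, 2 and 3 in turn). Tnni1, a troponin, had signals of 280.3, 176 and 153 in polysomal RNA, against 134, 81.3 and 101 in total RNA, a ratio of 0.89 ± 0.15 (adjusted p = 6.83e-04). The call of Nppa, 1.16 ± 0.31 (adjusted p = 0.0122), was lost without lysate 1 or lysate 3 and without the lysate block. Cartilage markers held 0 higher and 2 lower of 11 (18.2%, beside 14.6% of all genes), with a median of -0.093 that was 0.33 with the spiked controls. Col2a1 was among the lower with -1.05 ± 0.17 (adjusted p = 6.32e-04), lost without the block. Solute carriers, the transporters of the cell membrane and of mitochondria, held 18 higher and 22 lower of 211 (11, 17 and 12 higher and 15, 11 and 13 lower without lysates 1, 2 and 3 in turn, and 24 higher and 17 lower with quantile normalization, and 57 higher and 2 lower with the spiked controls), or 8.53% and 10.4%. Slc25a11, the oxoglutarate carrier of mitochondria, had 907, 887 and 844 in polysomal RNA, against 486, 459 and 459 in total RNA, a ratio of 0.90 ± 0.10 (adjusted p = 3.58e-05). Slc25a39, a mitochondrial carrier, was lower, with 523, 277 and 278 in polysomal RNA, against 1142, 749 and 636 in total RNA and a ratio of -1.24 ± 0.13 (adjusted p = 3.02e-05). Integrins held 2 higher and 7 lower of 21 (1, 1 and 1 higher and 3, 3 and 1 lower without lysates 1, 2 and 3 in turn, and 2 higher and 0 lower with the spiked controls) and a median of -0.33 that was 0.11 with the spiked controls, with Itgb5 at 0.78 ± 0.12 (adjusted p = 3.81e-04).

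Several of the highest ratios fell outside these groups. Cryl1, a crystallin-like dehydrogenase, had signals of 112, 123 and 96.7 in polysomal RNA, against 27.7, 14.8 and 14 in total RNA, a ratio of 2.29 ± 0.22 (adjusted p = 1.23e-05). Cbr3, a carbonyl reductase, had 43.1, 47.2 and 48.9 in polysomal RNA, against 3.4, 5.8 and 5.3 in total RNA, a ratio of 2.32 ± 0.42 (adjusted p = 0.00116), where the total RNA signals lay near the constant added before the logarithm. All total RNA signals of Cryl1 and Cbr3, at the later stages too, lay under the filter of 40.9. Both genes were tested only through the polysomal arrays, where they are high. Ppic, a cyclophilin that folds proline bonds in the secretory pathway, had 1891, 2202 and 2263 in polysomal RNA, against 721, 693 and 659 in total RNA, a ratio of 1.61 ± 0.14 (adjusted p = 6.59e-06). In each of these genes the polysomal signal was higher in every lysate, which the rule for naming the highest ratios required. Arf2, a small GTPase of Golgi transport, had 564, 784 and 757 in polysomal RNA, against 233, 217 and 187 in total RNA, a ratio of 1.69 ± 0.13 (adjusted p = 3.05e-06). Fabp4, a fatty acid carrier, had 69.6, 41.8 and 92.9 in polysomal RNA, against 27, 11.4 and 20.5 in total RNA, a ratio of 1.53 ± 0.22 (adjusted p = 2.55e-04). In these 5 genes every polysomal array lay above every total RNA array, which the same rule required, so it adds no support.

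Some of the highest ratios were larger in lysate 3 than in the others. Atp6v1c2, a subunit of the vacuolar proton pump, had signals of 29.6, 32.4 and 249 in polysomal RNA, against 4.3, 3.3 and 10.7 in total RNA, a ratio of 2.63 ± 0.29 (adjusted p = 3.46e-05), and 1.96 without lysate 3 (8.04e-05 as adjusted p). Its total RNA signals were near or below the added constant, so the size of its ratio depends on that constant. Saa3, an acute phase protein, had 211, 248 and 646 in polysomal RNA, against 93.0, 112 and 125 in total RNA, a ratio of 1.52 ± 0.21 (adjusted p = 1.51e-04), and 1.13 without it (0.00172 as adjusted p). Pla2g2a, a secreted phospholipase, had 91.4, 40.2 and 179 in polysomal RNA, against 27.1, 6.5 and 26.3 in total RNA, a ratio of 2.01 ± 0.18 (adjusted p = 7.64e-06), and 1.75 without it (1.99e-04 as adjusted p). These 3 genes kept their calls in lysates 1 and 2 alone.

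At the low end, Rnf151, a RING finger protein, had signals of 29.4, 18.6 and 33.7 in polysomal RNA, against 226, 134 and 157 in total RNA, a ratio of -2.43 ± 0.18 (adjusted p = 2.72e-06). Phospho1, a phosphatase of mineralising tissue, had 9.3, 11.6 and 6.9 in polysomal RNA, against 117, 41.7 and 75.8 in total RNA, a ratio of -2.40 ± 0.29 (adjusted p = 6.38e-05). Gpr4, a proton-sensing receptor, had 48.3, 9.3 and 13.3 in polysomal RNA, against 128, 141 and 115 in total RNA, a ratio of -2.43 ± 0.33 (adjusted p = 1.46e-04). The polysomal signals of Phospho1 and of Gpr4 in lysates 2 and 3 were near the added constant, so their ratios depend on it more than those of brighter genes. Rbm38, an RNA-binding protein, had 144, 89.8 and 71.9 in polysomal RNA, against 706, 332 and 261 in total RNA, a ratio of -1.95 ± 0.15 (adjusted p = 3.05e-06). Etv4, a transcription factor of the branching epithelium downstream of fibroblast growth factors, had 23.9, 16.8 and 22.2 in polysomal RNA, against 104, 77.6 and 104 in total RNA, a ratio of -1.92 ± 0.31 (adjusted p = 5.25e-04). All polysomal signals of Phospho1 and Etv4, at the later stages too, lay under the filter of 40.9. Both genes were tested only through the total RNA arrays, where they are high.

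The FD19 ratios were next set against those of the later stages, which come from other litters and arrays. Of the probe sets higher at FD19, 2684 of 3102 (86.5%) had a positive ratio at both FD22 and P1, and of those lower at FD19, 3329 of 3687 (90.3%) had a negative ratio at both. The same shares among all probe sets tested were not counted, so these have no background beside them. The difference between the FD19 ratio and the mean of the later ratios was called for 2 of 21655 probe sets (0.00924%), while 2848 (13.2%) had an unadjusted p under 0.05 in the same limma fit. Without the lysate block the count was 0, and without lysates 1, 2 and 3 in turn it was 1, 1 and 0. The list medians at the stages are given side by side: ribosomal proteins had -0.99, -1.30 and -0.78 at FD19, FD22 and P1. Collagens had -0.43, -0.18 and -0.24, erythroid genes -1.09, -1.31 and -1.15, and proteasome genes 0.35, 0.37 and 0.57. The order of these 4 medians, with proteasome genes highest and erythroid genes lowest, was the same at each stage, and a difference of a list between stages was not tested.

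**Figure D4:**
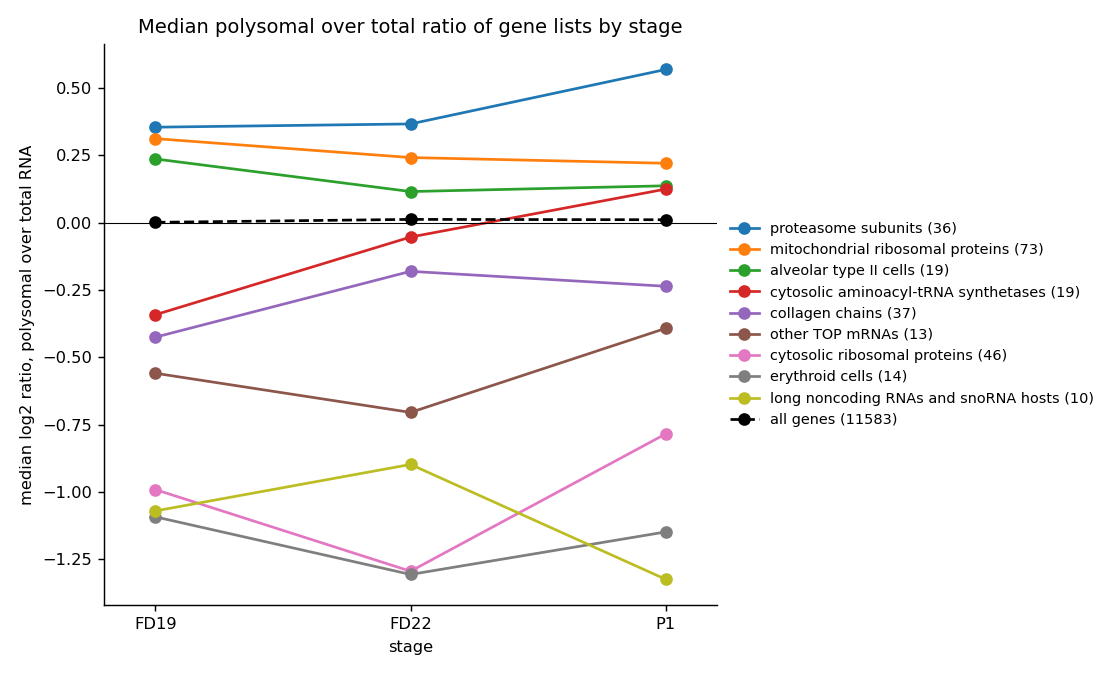
Median log2 ratio of polysomal over total RNA (y axis) for 9 gene lists and for all genes at FD19, FD22 and P1 (x axis), with the number of genes in brackets. The medians of proteasome, mitochondrial ribosomal protein and type II genes lie above 0 at the 3 stages, and those of ribosomal protein, other TOP, collagen, erythroid and noncoding genes lie below 0.

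Both called genes had a higher ratio at FD19 than later. Alas2, the first enzyme of heme synthesis in red cell precursors, whose message carries an iron-responsive element, had signals of 1259, 1258 and 919 in polysomal RNA, against 2000, 1580 and 1246 in total RNA at FD19, where the fractions overlapped. Its within-lysate ratios were -0.67, -0.33 and -0.44 at FD19, -1.36, -1.32 and -1.57 at FD22 and -2.09, -1.70 and -1.83 at P1, so the stages did not overlap. The FD19 ratio exceeded the mean later ratio by 1.17 ± 0.13 (adjusted p = 0.0085). Amd1, a polyamine synthesis enzyme whose message has a regulatory upstream frame, had 715, 597 and 526 in polysomal RNA, against 557, 395 and 433 in total RNA at FD19. Its within-lysate ratios were 0.36, 0.59 and 0.28 at FD19, -0.15, -0.22 and -0.31 at FD22 and -1.08, -1.14 and -1.17 at P1, positive in 3 of 3 lysates at FD19 and negative in 6 of 6 later ones. The difference was 1.09 ± 0.13 (adjusted p = 0.0106).

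Other genes named above showed gaps between stages that were not called. Sftpa1 had within-lysate ratios of 0.97, 0.96 and 1.04 at FD19, -0.022, 0.24 and 0.27 at FD22 and 0.015, 0.40 and 0.35 at P1, a difference of 0.78 ± 0.12 (adjusted p = 0.0561). Eprs1 had ratios of -1.92, -1.11 and -1.39 at FD19, -0.77, -0.77 and -0.034 at FD22 and -0.055, -0.58 and -0.67 at P1, a difference of -0.99 ± 0.21 (adjusted p = 0.0866). For both, the 3 FD19 lysates lay apart from the 6 later ones. They were picked after their values were seen, and other named genes, such as Fbn2 and Col2a1, lay apart in the same way. How many of all genes did so was not counted.

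**Figure D5:**
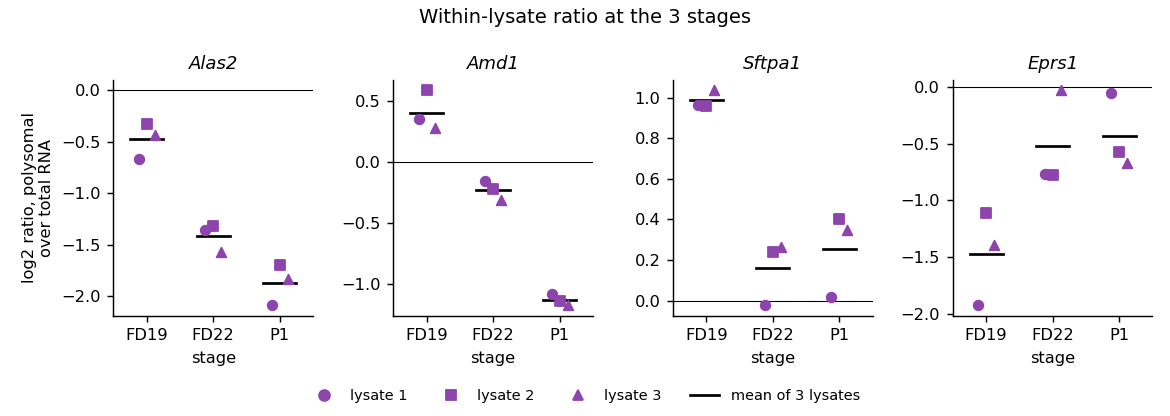
Within-lysate log2 ratio of polysomal over total RNA (y axis) for 4 genes at FD19, FD22 and P1 (x axis), 1 point per lysate and a bar at their mean; equal symbols at different stages are different litters. The difference between FD19 and later stages was called for Alas2 and Amd1 and not for Sftpa1 and Eprs1.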

How the data were processed

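The authors deposited a signal intensity per probe set for each of the 18 arrays, on a linear scale. Each array held biotin-labelled cRNA from 5 ug of RNA, and GCOS 1.4 was the software named, per the submitters' processing notes. The background correction and the scaling target are not given in the sources used here. In the deposited values, every array had the same 2% trimmed mean.

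The 57 control probe sets were left out, and 21655 probe sets above 40.9 (the 40th percentile of all values) on at least 3 of 18 arrays were kept. A constant of 5.6, the 10th percentile of all values, was added before taking log2. The log2 values were fitted with limma 3.58.1 in R 4.3.3, with the 9 lysates as blocks, a polysomal term per stage and a variance trend, and p-values were adjusted over all 21655 probe sets (Benjamini-Hochberg). Polysomal and total arrays of a lysate pair by the labels, and their deviations from group means correlated at r = 0.18 to 0.48 in 9 of 9 lysates. The code was tested on simulated data.

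Of 31042 probe sets, 20826 had 1 gene in the platform annotation, 436 had several and 9780 had none. Of these, 20758 matched a RefSeq gene by Entrez number. A gene is represented by its brightest kept probe set. Named genes were called genes whose fractions did not overlap (the 15 with the highest and the 15 with the lowest ratio), up to 3 called genes per list and direction, genes whose difference between stages was called, and a short list of reference genes. The text gives a selection of these, chosen after their values were seen. The members and lists were chosen with earlier results of these data known. Alternatives were the constant, the filter, quantile normalization, median centring, no trend, FD19 arrays only, no lysate block and leaving out each lysate. Scaling to 18 spiked control probe sets and leaving out all arrays numbered 1 were added after seeing the data. Samples that share a stage are separate litters.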

Additional observations from a re-analysis of the deposited data

Results flagged for a closer look

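For Alas2 and Amd1 the FD19 ratio and the mean of the FD22 and P1 ratios differed by a test of the difference itself, an interaction contrast in the limma fit over 18 arrays. The difference was 1.17 for Alas2, higher at FD19 in 3 of 3 lysates than in any of 6 later lysates. It was 1.09 for Amd1, with the same separation. The values of both genes are given above. Groups of 3 arrays were too small for a search for single outlying samples.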

How the results depend on the processing

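The lower count was 2366 without the replicate block and 617 with the spiked controls, and the higher count 6704 with them. Leaving out 1 lysate gave 1782 to 2147 higher and 2012 to 2552 lower probe sets, in fits with fewer samples. The count of called differences between FD19 and later stages, 2, was 5 with a constant at the 1st percentile, 33 at the 30th, 41 with the filter at the 60th percentile, 20 with quantile normalization and 6 with the spiked controls. It was 0 with no variance trend, 0 with no replicate block, 0 without the arrays numbered 1, and 0 to 1 without 1 lysate. The cause of these shifts was not tested. With the spiked controls the log2 ratio turned for Lamc1 (0.030), Junb (0.0039), Hist2h2be (0.11), Sftpc (0.040) and Cyp2f4 (0.0042). With quantile normalization it turned for Sftpc (0.35, called), Eef1a1 (0.067) and Hbb (0.069). Of 212 named genes called, 17 lost their call or turned with quantile normalization, 63 with the spiked controls, 45 without the replicate block, and 31, 40 and 42 without lysates 1, 2 and 3. The planned description by protein length, with its alternatives, was not run. Of the probe sets kept, 690 were under the filter on all 6 FD19 arrays, and their ratios are limited by background.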

Other observations

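Several gene families that had not been listed as such had calls largely in one direction. They were picked after their values were seen, so they get counts and no test. Some members, such as Cldn5 and Cldn10, were already counted in the lists above. Among charged multivesicular body proteins, subunits of the ESCRT-III complex that pinches off membrane, 8 of 9 were higher in polysomal RNA and 0 lower, with a median log2 ratio of 0.66. Chmp1a had signals of 438, 396 and 340.1 in polysomal RNA, against 188, 169.9 and 168 in total RNA, a ratio of 1.13 ± 0.14 (adjusted p = 7.98e-05). Chmp7, which starts the complex at the nuclear envelope, had 429, 477 and 494 in polysomal RNA, against 234, 229 and 211 in total RNA, a ratio of 1.04 ± 0.12 (adjusted p = 5.59e-05). The count was 8 whichever lysate was left out. Among claudins, the strands of tight junctions, 8 of 12 were higher and 0 lower (6, 3 and 4 higher without lysates 1, 2 and 3 in turn). Cldn3 had 544, 502 and 552 in polysomal RNA, against 273, 385 and 302 in total RNA, a ratio of 0.74 ± 0.13 (adjusted p = 7.83e-04), while Cldn2 had a ratio of -0.73 ± 0.27 that was not called (0.0519 as adjusted p). Glutathione transferases, which detoxify electrophiles, held 14 higher and 0 lower of 18 (9, 6 and 5 higher without lysates 1, 2 and 3 in turn), and Gstp1 had 1462, 1770 and 1692 in polysomal RNA, against 1054, 972 and 933 in total RNA, a ratio of 0.73 ± 0.11 (adjusted p = 2.58e-04). Of 16 tetraspanins, which organise membrane proteins, 8 were higher and 0 lower (1, 0 and 0 lower without lysates 1, 2 and 3 in turn), with Tspan9 at 0.79 ± 0.10 (adjusted p = 6.58e-05) and Tspan4 at 0.94 ± 0.14 (adjusted p = 2.74e-04).

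In 2 complexes most of the called genes were lower. With the spiked controls most calls were no longer lower, but both medians stayed below the 0.42 of all genes on that scale. The eIF3 subunits were already counted among the initiation factors above. Of 11 eIF3 subunits 7 were lower and 0 higher (3, 6 and 4 lower without lysates 1, 2 and 3 in turn, and 3 higher and 1 lower with the spiked controls), with a median of -0.33 that was 0.10 with the spiked controls. Eif3k had signals of 435, 444 and 433 in polysomal RNA, against 740.2, 775 and 686 in total RNA, a ratio of -0.74 ± 0.11 (adjusted p = 2.53e-04), lost with the spiked controls, while Eif3d, the cap-binding subunit, had a ratio of 0.10 ± 0.13 that was not called (0.602 as adjusted p). Of 9 Mcm genes of DNA replication licensing, 4 were lower and 1 was higher (0, 0 and 0 higher and 2, 3 and 2 lower without lysates 1, 2 and 3 in turn, and 1 higher and 0 lower with the spiked controls), with a median of -0.39 that was 0.036 with the spiked controls. These ratios compare large polysomes with the whole lysate, and a message held on fewer ribosomes is counted as lower here.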
